A study of Arabidopsis with 27 samples.

Results

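The comparison described here is that of extracellular ATP (eATP) with L-glutamate (L-Glu) in the Arabidopsis thaliana double mutant glr3.3glr3.6, read in a systemic rosette leaf 30 min after a local leaf of the same rosette had been treated. It rests on 6 of the 27 RNA-seq libraries of the series, 3 from eATP plants and 3 from L-Glu plants, taken by genotype and treatment label. Libraries that carry the same replicate number were paired, and no mock library entered the difference. The eATP treatment is given in the labels as 300 µM βγmeATP, an analogue of ATP, and L-Glu was applied at 100 mM. Each library pooled 8 plants, grown for 4 weeks at 21 °C in days of 10 h light and 14 h dark, with a photon flux of 50 µmol per second and square metre. The same contrast in wild-type Col-0 and in the double mutant p2k1p2k2, also 3 libraries a treatment, served to test whether any difference was particular to glr3.3glr3.6.

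Extracellular ATP and glutamate are both released from damaged plant cells. ATP outside the cell is sensed by the lectin receptor kinases P2K1 and P2K2, and binding is followed by calcium entry, production of reactive oxygen by NADPH oxidases and expression of wound and defence genes. Glutamate activates the glutamate receptor-like channels GLR3.3 and GLR3.6, which carry the long-distance electrical and calcium signals that reach distant leaves after wounding. In a line meant to lack these channels, the comparison asks whether a leaf away from the treated one still differs in its transcripts according to which of the 2 signals was given.

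No gene passed the test. Of 16577 genes whose mean FPKM (fragments per unit of transcript length and of mapped fragments) reached 1, 0 (0%) had an adjusted p under 0.05 for eATP against L-Glu in glr3.3glr3.6 by limma on log2(FPKM + 1), and the lowest adjusted p was 0.819. At an unadjusted p under 0.05 there were 770 genes (4.64%), where 829 are expected if no gene differed. Of these, 512 (3.09%) were higher after eATP and 258 (1.56%) were higher after L-Glu. Leaving out replicate 3 gave 4 calls, and leaving out the eATP library of number 3 gave 2, so the count rests in part on that library. P-values and standard errors here rest on 1 variance per gene, fitted over all 27 libraries of the 3 lines. They do not measure the spread of the 6 libraries alone, and a gene has the same error in each line. All differences below are eATP minus L-Glu on the log2(FPKM + 1) scale, with the standard error of the fit, and this scale understates the change of genes of low level. Whether the groups of a named gene overlap is given as a description only, because its share over all genes is not given here.

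The estimates were narrow for most genes. The median difference over all genes was 0.012, the middle 90% lay between -0.23 and 0.31, and the median standard error was 0.13. For 15764 genes (95.1%) the 95% interval of the difference lay wholly within a 2-fold change of FPKM + 1 in either direction. For genes of low level this allows a larger change of FPKM itself. The 3 pairs did not share a common direction across genes: their differences correlated at 0.20 between pairs 1 and 2, at -0.033 between pairs 1 and 3 and at -0.097 between pairs 2 and 3, over the 16577 genes and as a description only. By the fitted difference 8910 genes (53.7%) were higher after eATP. Genes higher after eATP in all 3 pairs numbered 2450 (14.8%), and genes lower in all 3 numbered 1936 (11.7%).

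In Col-0 the same fit called 1 gene (0.00603%), and 2374 genes (14.3%) had an unadjusted p under 0.05. The gene was AT4G34980, the subtilisin-like serine protease SLP2, at 7.85, 14.2 and 15.2 FPKM after eATP and 12.2, 19.9 and 22.7 FPKM after L-Glu in Col-0. In glr3.3glr3.6 it stood at 12.2, 23.1 and 22.4 FPKM after eATP and at 10.0, 22.6 and 23.4 FPKM after L-Glu, and these groups overlap. In p2k1p2k2, 0 genes (0%) were called and 981 (5.92%) had an unadjusted p under 0.05. The difference of the contrast between glr3.3glr3.6 and Col-0 was itself called for 0 genes (0%) with 1139 (6.87%) at an unadjusted p under 0.05, and that between glr3.3glr3.6 and p2k1p2k2 for 0 genes (0%) with 1110 (6.7%). By these tests no gene is shown to respond differently to the 2 treatments in glr3.3glr3.6 than in the other lines.

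**Figure D1:**
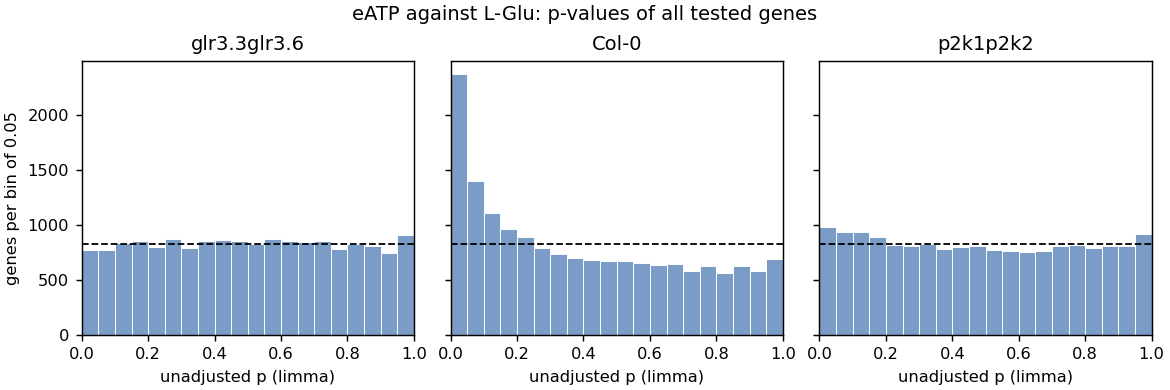
Unadjusted p-values from limma for eATP against L-Glu in each line, counted in bins of 0.05 over the 16577 tested genes (y axis, genes per bin); the dashed line marks 829 genes, the count per bin if no gene differed. The lowest bin holds 770 genes in glr3.3glr3.6, 2374 in Col-0 and 981 in p2k1p2k2.

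The 6 libraries summed to 745207 to 780934 FPKM and listed 21215 to 21574 genes above 0. The files give no read counts, so the absolute depth is unknown. From the value that 1 fragment takes in genes of low level, the relative depth of the 6 libraries ranged from 0.782 to 1, against 0.767 to 1.24 over all 27. Libraries of the same number correlated at 0.974 to 0.979 between eATP and L-Glu, above the 0.953 to 0.971 among eATP libraries and the 0.962 to 0.972 among L-Glu libraries. For the leaf label, 6 of 6 mesophyll markers reached a mean of 1 FPKM, with a summed level of 29128 to 32734 FPKM after eATP and 28372 to 35661 FPKM after L-Glu. Of 6 flower markers 0 did. Of 8 root markers 2 did (SHR and SCR), with a summed level of 7.58 to 9.22 FPKM after eATP and 6.33 to 7.31 FPKM after L-Glu, while PLT1, RHD6, EXPA7 and PHT1;1 were listed at 0 in all 6 libraries. Of 8 markers of the shoot apex and dividing cells 2 did (HIS4 and KRP2), with 39.5 to 63.7 FPKM after eATP and 42.3 to 56.2 FPKM after L-Glu, while STM, WUS and CLV3 were listed at 0. In a bulk leaf, fewer cells of a type and less RNA per cell cannot be told apart.

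The genes that name the line were all read in it. GLR3.6 (AT3G51480), a glutamate receptor-like channel, stood at 88.1, 70.5 and 122 FPKM after eATP and at 90.4, 101 and 135 FPKM after L-Glu in the libraries labelled glr3.3glr3.6. In Col-0 it ranged from 0.827 to 1.42 FPKM over the 9 libraries. GLR3.3 (AT1G42540) stood at 7.26, 6.25 and 7.20 FPKM after eATP and at 8.05, 7.71 and 6.98 FPKM after L-Glu, where the 9 Col-0 libraries ranged from 3.19 to 4.97 FPKM. Both named genes are thus higher, not lower, than in Col-0, and an FPKM for a whole gene leaves unknown where in the transcript the reads fell and whether a protein is made, so the name glr3.3glr3.6 stands here for the libraries so labelled. In the libraries labelled p2k1p2k2, P2K1 and P2K2 likewise ranged from 3.44 to 10.2 FPKM and from 6.15 to 37.7 FPKM. For both, the 95% interval of the difference between the 2 treatments included 0 (GLR3.6, -0.23 ± 0.16; GLR3.3, -0.12 ± 0.12; adjusted p = 0.993 for each by limma).

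The receptor list held 19 matched genes, 13 of them tested, with a median of -0.11 and 0 called. After eATP 3 were higher and 10 lower, with 7 lower in all 3 pairs (11.7% of all genes were). The median and these counts include P2K2, whose direction carries no weight for the reason given below. P2K1 (AT5G60300), the main ATP receptor kinase, stood at 1.51, 1.27 and 1.82 FPKM after eATP and at 1.75, 2.11 and 2.37 FPKM after L-Glu, with a difference of -0.28 ± 0.17. P2K2 (AT3G45430) stood at 0.308, 0.552 and 0.343 FPKM after eATP and 0.460, 0.596 and 0.356 FPKM after L-Glu. P2K1 was lower after eATP within each pair, by a small amount. P2K2 was below 1 FPKM in all 6 libraries compared. It passed the filter only through the p2k1p2k2 libraries (6.15 to 37.7 FPKM), so its direction carries no weight. All 4 apyrases, enzymes that hydrolyse ATP, were lower in each pair as well, and the one with the smallest p was APY6, at 15.3, 18.3 and 20.2 FPKM after eATP against 17.7, 18.3 and 21.96 FPKM after L-Glu (-0.11 ± 0.081). Their groups overlap, and each receptor and apyrase had an unadjusted p above 0.05.

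Among the lists with at least 10 tested members, the one whose median lay farthest from 0 was that of salicylate, the hormone of defence against biotrophic pathogens and of systemic acquired resistance. Of its 24 matched genes 21 were tested, 19 were higher after eATP and 7 of those had an unadjusted p under 0.05, but 0 were called. Over all genes 53.7% were higher, and 3.09% were higher with an unadjusted p under 0.05. The list median was 0.44, against 0.012 over all genes. By pair it was 0.64 in pair 1, 0.61 in pair 2 and -0.13 in pair 3, and the members higher after eATP numbered 18, 21 and 4 of 21. The list therefore leans towards eATP in 2 of the 3 pairs and not in the third. In all 3 pairs 4 of the 21 members were higher, beside 14.8% of all genes.

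Salicylate synthesis showed this most clearly. ICS1 (AT1G74710, also EDS16), the isochorismate synthase that makes most pathogen-induced salicylate, stood at 58.2, 32.7 and 13.0 FPKM after eATP and at 13.5, 10.9 and 16.0 FPKM after L-Glu. The eATP libraries of pairs 1 and 2 lie above every L-Glu library, that of pair 3 lies between them, and the groups overlap. The difference was 1.08 ± 0.40 with a 95% interval of 0.23 to 1.94 and an adjusted p of 0.993 by limma. Without replicate 3 it was 1.76 with an adjusted p of 0.0481, and without the eATP library of that number alone it was 1.90 with an adjusted p of 0.0342, so a single library decides this call.

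PBS3 (AT5G13320), which conjugates glutamate to isochorismate on the way to salicylate, stood at 22.6, 10.4 and 2.17 FPKM after eATP and at 2.05, 1.36 and 2.56 FPKM after L-Glu. Its difference was 1.69 ± 0.63 and its adjusted p was 0.993 by limma. The mock libraries of the line stood at 0.640, 0.864 and 5.93 FPKM. EDS5 (AT4G39030), the transporter that exports isochorismate from the chloroplast, stood at 23.2, 17.61 and 11.1 FPKM after eATP and 15.4, 14.8 and 9.61 FPKM after L-Glu. It was the member of the synthesis group that was higher after eATP in all 3 pairs, at 0.33 ± 0.17.

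Among the 9 regulators tested, 7 were higher after eATP and 4 of those had an unadjusted p under 0.05 (53.7% and 3.09% of all genes). CBP60G (AT5G26920), a transcription factor that activates ICS1, stood at 123, 101 and 82.5 FPKM after eATP and at 91.2, 65.9 and 66.7 FPKM after L-Glu. It was higher within each pair, with a difference of 0.45 ± 0.14 and an adjusted p of 0.993 by limma, and the groups overlap. EDS1 (AT3G48090), the lipase-like hub of immune signalling, stood at 78.3, 58.5 and 42.2 FPKM after eATP and at 42.2, 38.8 and 40.4 FPKM after L-Glu, so that its groups do not overlap although the third pair differs little. Its difference was 0.51 ± 0.17. The salicylate receptors NPR1, NPR3 and NPR4 stood at 0.028 ± 0.10, -0.068 ± 0.11 and -0.078 ± 0.19.

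Of the 9 genes of systemic acquired resistance and output that were tested, 9 were higher in the fitted mean (53.7% of all genes were). Of these, 1 had an unadjusted p under 0.05 (3.09% of all genes). Higher in all 3 pairs was AZI1, a lipid transfer protein of resistance priming, at 0.50 ± 0.33. PR1, the classical salicylate marker, stood at 140 FPKM in pair 1, 54.3 in pair 2 and 0.245 in pair 3 after eATP, and at 15.3, 3.23 and 0.492 FPKM after L-Glu. Its difference was 2.19 ± 1.2, an error that covers most of the estimate, and its level ranged more between pairs than between treatments. WRKY70 was the member with an unadjusted p under 0.05, at 141, 112 and 92.9 FPKM after eATP and 90.06, 64.5 and 100 FPKM after L-Glu (0.44 ± 0.19). ALD1 and FMO1, which make pipecolic acid and its hydroxylated form, were below the filter. Their eATP values likewise fell from pair 1 to pair 3. ALD1 was at 6.12, 2.94 and 0.0815 FPKM after eATP and 0.226, 0.356 and 0.138 FPKM after L-Glu. FMO1 was at 4.78 and 1.57 FPKM in eATP pairs 1 and 2 and listed at 0 in both libraries of pair 3.

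**Figure D2:**
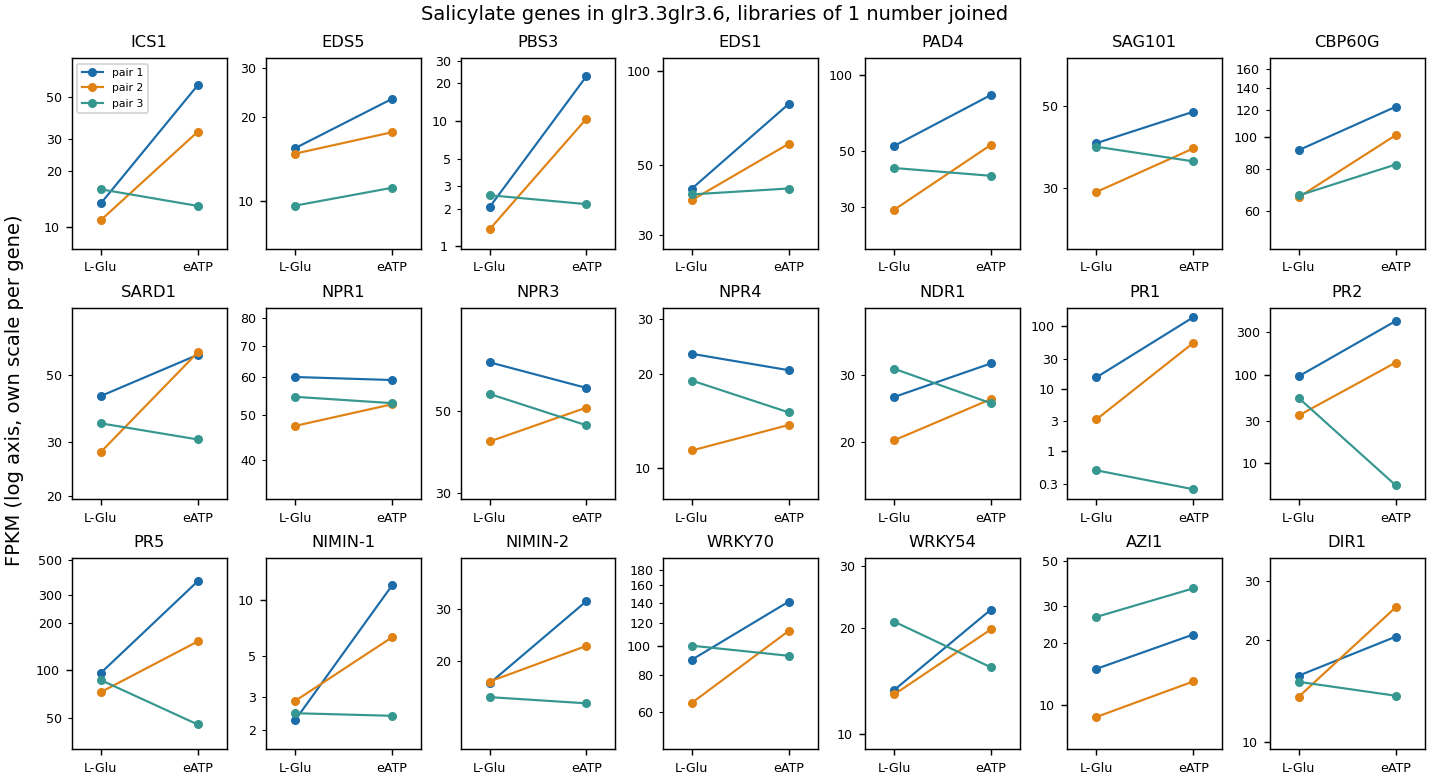
FPKM (log axis, its own range for each gene) of the 21 tested salicylate genes in the 6 libraries of glr3.3glr3.6, with the L-Glu and eATP library of the same number joined by a line. Pairs 1 and 2 slope upwards for most genes, ICS1 and PBS3 the most among the synthesis genes, while pair 3 is flat or slopes downwards for most.

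The salicylate list had a median of -0.16 in Col-0 and -0.19 in p2k1p2k2, where all genes had medians of -0.052 and 0.024. By pair the list medians were -0.027, -0.030 and -0.23 in Col-0, and -0.040, -0.61 and -0.30 in p2k1p2k2. Pairs 1 and 2 of Col-0 thus lay near the all-gene medians of those pairs, -0.020 and -0.073. Pair 3 of glr3.3glr3.6, at -0.13, lay below 0 as well. For the difference between lines, 7 of 21 members against Col-0 and 13 of 21 against p2k1p2k2 had an unadjusted p under 0.05, beside 6.87% and 6.7% of all genes, and 0 were called in either test. The member values behind this were, for ICS1, -0.23 ± 0.40 in Col-0 and -0.39 ± 0.40 in p2k1p2k2, and for EDS1, -0.20 ± 0.17 and -0.13 ± 0.17. Members of the list share regulators and libraries, and are not independent. The 5 senescence markers tested had a median of 0.22 in glr3.3glr3.6, beside 0.20 in Col-0 and 0.21 in p2k1p2k2. In glr3.3glr3.6 the 6 markers of the list summed to 529 to 694 FPKM after eATP and to 359 to 620 FPKM after L-Glu. Of these markers SAG12 was listed at 0 in all 6 libraries and 5 of 6 were detected. Their part in the salicylate values was not tested.

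**Figure D3:**
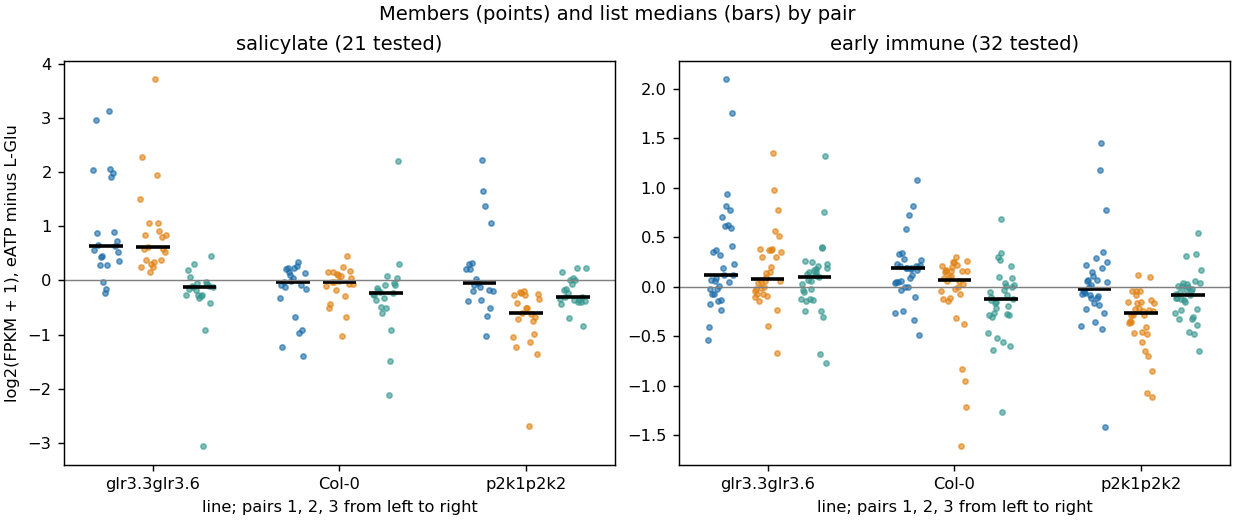
Differences between eATP and L-Glu, in log2(FPKM + 1), of each tested member of the salicylate list (left, 21 genes) and the early immune list (right, 32 genes) in each pair of each line, with bars at the list median. In glr3.3glr3.6 the salicylate medians are 0.64, 0.61 and -0.13 and the early immune medians 0.12, 0.079 and 0.10, each from pair 1 to pair 3.

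Genes of early immune signalling, which respond within minutes to damage and microbial patterns, had a median of 0.13, the next highest among the 17 lists with at least 10 tested members. Of 32 tested members, 22 were higher after eATP, 5 of those had an unadjusted p under 0.05 (53.7% and 3.09% of all genes) and 0 were called. Here the 3 pairs had like medians, at 0.12, 0.079 and 0.10, and 13 members were higher in all 3 pairs (14.8% of all genes were). The receptors and kinases of the list stayed near 0, with a median of -0.035 over 13 genes. The WRKY factors (median 0.15 over 10 genes) and the early markers (0.37 over 9 genes) held the higher values. In Col-0 the WRKY factors had a like median of 0.14, and the early markers one of 0.0037. The median of the whole list in Col-0 was 0.030, with 0.18, 0.070 and -0.13 by pair.

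WRKY53 (AT4G23810), a factor of defence and leaf senescence, stood at 101, 56.0 and 54.5 FPKM after eATP and at 57.1, 42.8 and 51.0 FPKM after L-Glu (0.43 ± 0.15). WRKY46 stood at 58.0, 54.3 and 37.5 FPKM after eATP and 37.6, 41.7 and 32.2 FPKM after L-Glu (0.40 ± 0.16). Both were higher after eATP in each pair, and in both the groups overlap. PER4 (AT1G14540), a cell wall peroxidase, stood at 16.1, 13.1 and 10.5 FPKM after eATP and at 10.1, 8.51 and 7.76 FPKM after L-Glu, with groups that do not overlap (0.53 ± 0.19).

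PROPEP3 (AT5G64905), the precursor of a danger peptide sensed by PEPR1 and PEPR2, stood at 2.81, 4.54 and 3.66 FPKM after eATP and at 1.86, 2.25 and 0.860 FPKM after L-Glu. These groups do not overlap either, and the 3 mock libraries of the line lay below all eATP values, at 1.16, 0.480 and 0.357 FPKM. Its difference was 0.84 ± 0.32, against -0.25 ± 0.32 in Col-0 and -0.57 ± 0.32 in p2k1p2k2, with an adjusted p of 0.993 by limma in glr3.3glr3.6. MPK3, a MAP kinase of immunity, stood at 0.27 ± 0.13, and the pattern receptor FLS2 at -0.26 ± 0.15.

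**Figure D4:**
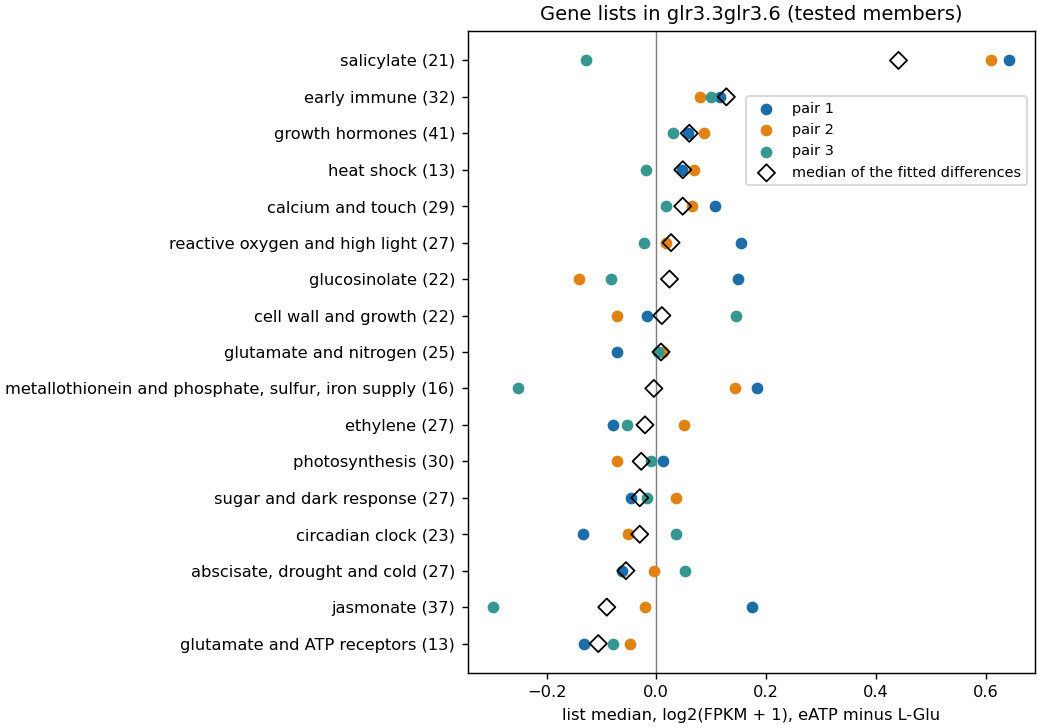
Median difference of each gene list in glr3.3glr3.6 (x axis, eATP minus L-Glu in log2(FPKM + 1)), by pair and over the fitted differences, for the 17 lists with at least 10 tested members, whose number is in brackets. The salicylate list lies highest at 0.44 and the receptor list lowest at -0.11, and the pairs straddle 0 for most lists.

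Jasmonate genes, the main wound hormone pathway, lay slightly below 0. Of 37 tested members, 11 were higher and 26 lower after eATP, 0 were called, and the median was -0.090, with 0.17, -0.020 and -0.30 by pair. The JAZ repressors, which are transcribed as jasmonate signalling proceeds, showed the same spread, with 10, 2 and 0 of 10 higher after eATP in pairs 1, 2 and 3. AOC1, an allene oxide cyclase, stood at 314, 159 and 150 FPKM after eATP and 303, 226 and 217 FPKM after L-Glu (-0.33 ± 0.16), and the groups overlap. CYP94B3, which oxidises active jasmonate, varied from 0.982 to 13.4 FPKM after eATP and from 3.85 to 23.4 FPKM after L-Glu, with no common direction. PDF1.2, a defensin, had the smallest p of the list and rests on 1 library: it was at 79.3 FPKM in eATP pair 1, at 0.297 FPKM in pair 2 and listed at 0 in pair 3, against 0.455, 0.142 and 0 FPKM after L-Glu.

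Calcium and touch genes gave a median of 0.048 over 29 tested members, with 19 higher, 10 lower and 0 called. All 7 calmodulin-like genes were higher in the fitted mean (53.7% of all genes were). Their median was 0.18, against 0.29 in Col-0 and -0.12 in p2k1p2k2, so the lean is not particular to glr3.3glr3.6. CML12 (TCH3), a calmodulin-like protein induced by touch, stood at 4668, 3485 and 3862 FPKM after eATP and 4075, 3069 and 3684 FPKM after L-Glu, higher in each pair by a small amount (0.15 ± 0.066). ACA13, a calcium pump of the plasma membrane, stood at 2.97, 6.81 and 3.395 FPKM after eATP against 2.58, 2.57 and 3.08 FPKM after L-Glu (0.46 ± 0.18), a difference carried mainly by pair 2. CNGC2, a cyclic nucleotide-gated channel, was lower after eATP in each pair (-0.21 ± 0.090).

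For reactive oxygen the median was 0.027 over 27 genes, with 17 higher, 10 lower and 0 called. RBOHD, the oxidase that carries the systemic oxidative burst, stood at 130, 128 and 118 FPKM after eATP and at 155, 118 and 98.3 FPKM after L-Glu, with a difference of 0.043 ± 0.22 and a 95% interval of -0.43 to 0.51. Of the 4 members with the smallest p, the mitochondrial stress factor ANAC013 stood at -0.38 ± 0.13 and 3 lay above 0: SIB1, a sigma factor-binding protein, at 0.34 ± 0.13, and the zinc finger factors AZF1 and ZAT7 at 0.60 ± 0.25 and 0.58 ± 0.25. AZF1 was at 3.29, 2.24 and 2.77 FPKM after eATP and 1.66, 1.61 and 1.14 FPKM after L-Glu, and its groups do not overlap. ZAT12, the reporter most used for high-light and oxidative signals, stood at -0.067 ± 0.20.

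The ethylene list had a median of -0.021 over 27 genes and 0 called. Its member with the smallest p, ACS7 (AT4G26200), which makes the ethylene precursor ACC, was also among the 10 genes with the smallest p in the direction of eATP. It stood at 3.35, 5.31 and 2.58 FPKM after eATP and at 1.41, 2.67 and 1.65 FPKM after L-Glu, higher in each pair, with groups that overlap by the third eATP library. The difference was 0.69 ± 0.18, against -0.18 ± 0.18 in Col-0 and -0.40 ± 0.18 in p2k1p2k2, and the adjusted p was 0.993 by limma. The mock libraries, at 2.53, 4.53 and 2.04 FPKM, lay near the eATP ones. ERF5 stood at 72.2, 66.4 and 71.9 FPKM after eATP and 63.7, 55.3 and 45.2 FPKM after L-Glu, with groups that do not overlap (0.37 ± 0.15).

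In the lists of metabolism, abiotic stress and growth 0 members were called. Of the 25 glutamate and nitrogen genes tested, 13 were higher and 12 lower, with a median of 0.0086. The nearest to the threshold was GDH1, a glutamate dehydrogenase, at 172, 204 and 228 FPKM after eATP and 153, 168 and 198 FPKM after L-Glu (0.22 ± 0.10). Photosynthesis genes had a median of -0.028 over 30 genes, the circadian clock -0.030 over 23, abscisate with drought and cold -0.055 over 27, heat shock 0.048 over 13, and sugar and dark response -0.030 over 27. Growth hormones stood at 0.060 over 41 genes, of which 24 were higher and 17 lower, with 13 higher in all 3 pairs (14.8% of all genes were). Cell wall and growth stood at 0.010 over 22 genes, glucosinolate at 0.024 over 22, and metallothionein with nutrient supply at -0.0045 over 16. Of the 21 flavonoid and anthocyanin genes 7 were tested, 3 were higher and 4 lower, and 0 were called.

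Single members of these lists had larger values. LUX, a repressor of the evening complex of the clock, stood at 13.2, 16.9 and 18.8 FPKM after eATP and at 19.1, 22.7 and 22.8 FPKM after L-Glu, with groups that do not overlap (-0.39 ± 0.15). IAA29, an auxin response repressor, stood at 11.5, 19.9 and 16.9 FPKM after eATP and 4.14, 11.3 and 13.9 FPKM after L-Glu (0.77 ± 0.25). BCAT2, a branched-chain amino acid transaminase induced in the dark, stood at 14.8, 13.2 and 6.04 FPKM after eATP and 7.47, 2.26 and 4.60 FPKM after L-Glu (1.12 ± 0.35). Both IAA29 and BCAT2 were higher after eATP in each pair, and their groups overlap. COR15B, a chloroplast cold protection protein, stood at -0.52 ± 0.21, and HSP90.1, a cytosolic chaperone, at 0.69 ± 0.30.

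Since fewer than 5 genes passed in either direction, the 10 genes with the smallest p in each are given as genes that did not pass; their adjusted p ranged from 0.819 to 0.993 by limma. Towards eATP they were AT1G58420, AT1G31940, AT4G04200, MIR830, AT3G12910, AT3G01505, AT5G11140, OSB4, BGLU25 and ACS7. AT4G04200 stood at 8.67, 7.93 and 7.60 FPKM after eATP and at 3.92, 4.97 and 4.99 FPKM after L-Glu, with groups that do not overlap (0.69 ± 0.14). BGLU25, a beta-glucosidase, stood at 14.2, 12.3 and 10.5 FPKM after eATP and 5.75, 8.50 and 7.42 FPKM after L-Glu (0.70 ± 0.18). In BGLU25 and AT4G04200 the L-Glu values lie below the mock values of the line, which were 7.36, 9.0 and 8.27 FPKM and 5.97, 7.76 and 7.22 FPKM, in every pair.

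OSB4, a single-stranded DNA-binding protein of organelles, stood at 3.66, 2.69 and 3.71 FPKM after eATP and 2.65, 1.85 and 1.56 FPKM after L-Glu (0.53 ± 0.14). AT1G31940 stood at 14.8, 11.1 and 11.3 FPKM after eATP and 9.46, 8.18 and 8.98 FPKM after L-Glu (0.43 ± 0.089). Neither gene's groups overlap. AT1G58420 stood at 17.58, 8.47 and 8.98 FPKM after eATP and 11.1, 5.15 and 3.92 FPKM after L-Glu (0.76 ± 0.15), and there the groups overlap because number 1 was high under both treatments.

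Some of these are small or overlapping loci whose FPKM is less certain. MIR830, a microRNA precursor, was listed at 0 in the first eATP library and at 9.72 and 18.3 FPKM in the others, against 0 in all 3 L-Glu libraries and all 3 mock libraries. It was above 0 in only those 2 of the 27 libraries and passed the filter through them alone, so its p carries no weight. AT3G01505, a long non-coding RNA, stood at 43.4, 76.9 and 53.1 FPKM after eATP and at 0.00479, 0.000469 and 0.00364 FPKM after L-Glu, yet the mock libraries ran from 2.08 to 61.5 FPKM. Its span overlaps that of AT3G04790, and the strand of the libraries is not given in the sources used here, so reads of these loci cannot be told apart.

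Towards L-Glu the 10 genes were AT1G22830, AT1G09907, AT4G26540, AT5G39080, AT1G15180, AT1G68260, UGT74E2, AT2G35736, AT5G09845 and AT5G56040. AT1G22830 had the smallest p of all genes, 7.43e-05 unadjusted (adjusted p = 0.819, limma), at 1.03, 1.12 and 1.24 FPKM after eATP and 3.78, 2.26 and 2.97 FPKM after L-Glu. Its groups do not overlap, its difference was -0.89 ± 0.17, and the mock libraries, at 1.34, 0.979 and 0.900 FPKM, lay with the eATP ones. AT1G68260 (ALT3, an acyl-lipid thioesterase) stood at 12.2, 15.01 and 13.2 FPKM after eATP and 16.5, 19.8 and 15.2 FPKM after L-Glu (-0.32 ± 0.082).

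UGT74E2, a glycosyltransferase that acts on the auxin precursor indole-3-butyric acid and responds to hydrogen peroxide, stood at 6.99, 0.882 and 5.59 FPKM after eATP and at 24.1, 1.90 and 11.5 FPKM after L-Glu. It was lower after eATP in each pair (-1.07 ± 0.28), and the groups overlap because number 2 was low under both treatments. AT2G35736 stood at 5.93, 5.72 and 6.94 FPKM after eATP and at 41.2, 31.1 and 5.68 FPKM after L-Glu, so the difference of -1.54 ± 0.40 comes from pairs 1 and 2. Without replicate 3, the pair that did not show it, the difference was -2.43 with an adjusted p of 6.53e-05 by limma. In all libraries of the series but L-Glu 1 and 2 of this line, AT2G35736 ranged from 3.86 to 8.79 FPKM. Its span overlaps that of AT2G35733. AT1G09907, a long non-coding RNA that overlaps AT1G79700, was listed at 0 in 2 eATP libraries and at 0.459 FPKM in the third, against 1.91, 3.45 and 1.79 FPKM after L-Glu.

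**Figure D5:**
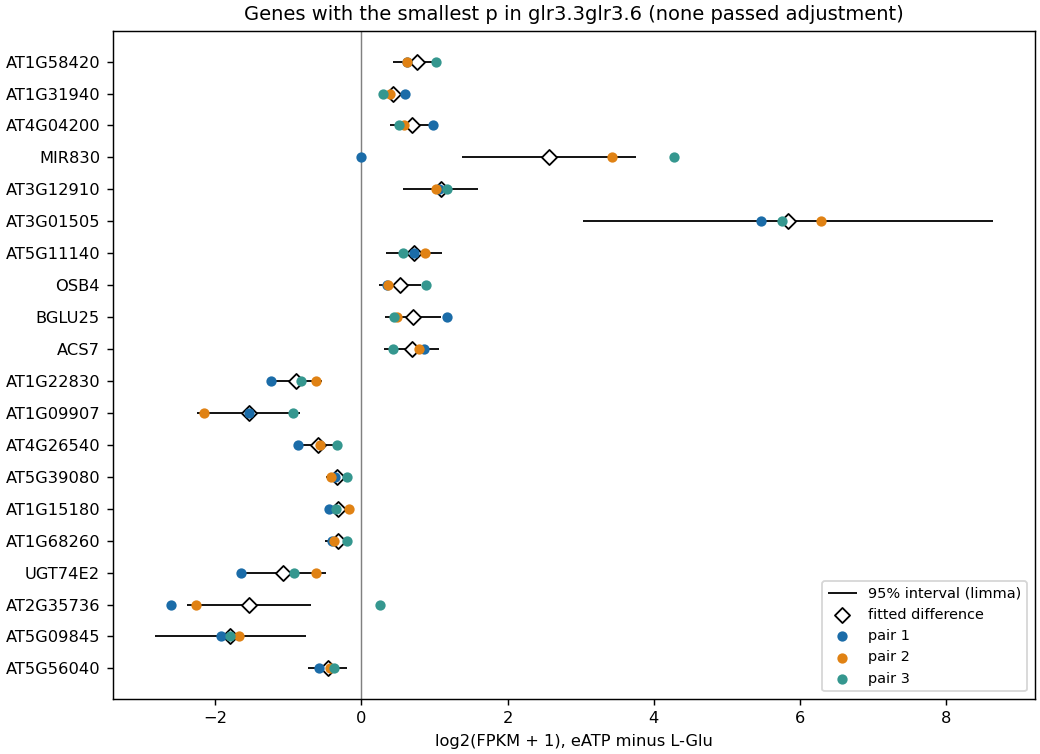
The 10 genes with the smallest p in each direction in glr3.3glr3.6, with the difference in each pair (coloured points), the fitted difference (diamonds) and its 95% interval from limma (lines), in log2(FPKM + 1), eATP minus L-Glu. No gene passed adjustment, and MIR830 and AT2G35736 each have a pair at or beyond 0.

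The differences between lines were tested in the same fit. Against Col-0, the 5 genes with the smallest p were AT4G34980, KNAT4, TRM19, AT4G09225 and AT5G53830, with adjusted p from 0.217 to 0.702 by limma. Leaving aside the long non-coding RNA AT4G09225, these stood between 0.077 and 0.18 in glr3.3glr3.6 and between -0.53 and -0.62 in Col-0, such as KNAT4, a homeobox factor, at 0.18 ± 0.10 and -0.54 ± 0.10. In p2k1p2k2, AT4G34980, KNAT4 and TRM19 were likewise above 0, at 0.22, 0.18 and 0.17, while AT5G53830 stood at -0.29. Against p2k1p2k2 they were MIOX2, AT1G15180, AT4G08795, AT1G32928 and PIL5, each with an adjusted p of 0.624 by limma. MIOX2, a myo-inositol oxygenase repressed by sugar, stood at 103, 207 and 97.7 FPKM after eATP and 77.5, 157 and 62.2 FPKM after L-Glu in glr3.3glr3.6, a difference of 0.48 ± 0.19. In p2k1p2k2 it stood at 47.6, 85.7 and 35.7 FPKM after eATP and 141, 189 and 48.4 FPKM after L-Glu, a difference of -1.04 ± 0.19. In Col-0 the MIOX2 difference was 0.42 ± 0.19, near that of glr3.3glr3.6.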

How the data were processed

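RNA of systemic leaves was sequenced on an Illumina instrument after extraction with the Plant RNeasy kit (Qiagen), per the labels' protocols. The build was TAIR10, and the tools listed in the submitters' processing notes are Cuffdiff 2.2.1 and Cufflinks 2.2.1, the aligner HISAT2 2.2.1, SAMtools 1.19, and for read trimming and quality Trim Galore 0.6.7 with FastQC 0.11.9. The authors deposited 1 table of FPKM for 32824 genes in 27 libraries, without read counts, so no count test was possible. Of the identifiers, 32539 matched the reference gene table used for names.

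FPKM was transformed to log2(FPKM + 1), and the 16577 genes whose mean over 27 libraries reached 1 FPKM were kept. In limma 3.58.1 (R 4.3.3), all 27 libraries were fitted with 1 mean per group and the replicate number as a block within genotype, with a trended variance, 12 residual and 3.75 prior degrees of freedom. Tests were two-sided, adjusted by Benjamini-Hochberg over all genes and called under 0.05. The pairing comes from the replicate numbers in the labels: deviations from the group means correlated between libraries of the same number at 0.51, 0.43 and 0.18 in glr3.3glr3.6, and all 9 numbers over the 3 lines correlated best with themselves. The procedure was tested on simulated data. Figures were drawn with matplotlib 3.10.9.

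The comparison, gene lists and tests were chosen with earlier results of these data known. Of 590 list members written, 570 matched 1 locus. Named by rule were the genes of both mutants, the 10 genes with the smallest p in each direction, the 5 with the smallest p for each difference between lines, and up to 4 members of each list with the smallest p. Other members named were chosen after their values were seen. Alternatives were the pseudocount, filter, scaling, block, libraries fitted, library weights and leaving out libraries. No sequence or coordinate was used here.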

Additional observations from a re-analysis of the deposited data

Results flagged for a closer look

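The early immune list had a median difference of 0.13 in glr3.3glr3.6 and of -0.14 in p2k1p2k2, and it drew attention because the median of every pair of the first line lay above 0 and that of every pair of the second below it. In Col-0 its median was 0.030, and pairs 1 and 2 lay above 0 there too, at 0.18 and 0.070, with pair 3 at -0.13. The growth hormone list had a median of 0.060 in glr3.3glr3.6 and of -0.060 in Col-0, again with all 3 pairs of each line on opposite sides of 0. Over all genes the Col-0 median was -0.052, also below 0 in each pair (-0.020, -0.073 and -0.049), so the Col-0 value of the list lies near that of all genes. The difference between lines was not tested for either list as a whole. For single members it was called by limma in 0 cases, with 6 of 32 early immune genes against p2k1p2k2 (6.7% of all genes) and 6 of 41 growth hormone genes against Col-0 (6.87% of all genes) at an unadjusted p under 0.05.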

How the results depend on the processing

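With 0 genes called in glr3.3glr3.6, a minimum mean of 5 FPKM or none, a filter on the 6 libraries, a pseudocount of 0.1, quantile or median-of-ratios scaling, and the 6 libraries alone with the block each also gave 0. Without the replicate block, limma called 0 there (276 genes at an unadjusted p under 0.05) and 0 in Col-0, where the pairing gave 1. The 6 libraries alone with no replicate block gave 2 (AT3G01505 and AT4G09225). Library weights gave 3 (MIR830, AT4G04200 and AT1G31940), with 2 in Col-0, 1 in p2k1p2k2 and 2 for the difference from Col-0. Leaving out libraries gave 0 to 4: MIR830 without replicate 1 or its eATP library, SRO5 (lower) without replicate 2 or its eATP library, AT2G35736, AT5G22530, AT3G61198 and ICS1 without replicate 3, AT3G61198 and ICS1 without its eATP library, and AT2G35736 without its L-Glu library. MIR830 was above 0 in 2 of the 27 libraries, both from eATP plants of this line, and passed the filter through them alone, so its calls carry no weight. The cause of the other calls was not tested.

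The salicylate median ranged from 0.28 to 0.65 over all settings. The growth hormone median was 0.029 with the pseudocount of 0.1 and 0.0032 with a minimum mean of 5 FPKM. The early immune median was 0.11 with that minimum, 0.10 under quantile and 0.11 under median-of-ratios scaling, and 0.072 with library weights, which also gave -0.060 for heat shock and -0.063 for the receptors. Leaving out libraries, medians ranged from 0.062 to 0.19 for early immune, 0.0035 to 0.12 for growth hormones, -0.053 to 0.17 for cell wall, -0.12 to -0.045 for receptors, -0.072 to 0.031 for glutamate and nitrogen, -0.014 to 0.10 for heat shock and -0.063 to 0.030 for sugar. Of 87 genes, 2 changed direction: the ferritin FER3 (0.063 with weights, -0.94 to 0.18 leaving out libraries) and the ferritin FER1 (-1.22 to 0.36). FER1 was 0.36 without replicate 3, 0.29 without its eATP and 0.024 without its L-Glu library, and FER3 was 0.17 and 0.18 without replicate 3 and its eATP library. Depth in reads is unknown, which limits what can be said of genes of low FPKM.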
